A study of Saccharomyces cerevisiae with 12 samples.

Results

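This comparison sets budding yeast (Saccharomyces cerevisiae) labelled with a histone H3 S10D construct against a reference strain, both after 3 hours with ethanol (EtOH). Its members were chosen by their labels, not by measured values, and were 6 of the 12 poly(A) RNA libraries of the series, 3 per strain, compared over 5990 genes. The other 6 libraries came from the same strains after 3 hours with estradiol (E2). The reference strain is labelled MATa with the lox-CEN4-lox:KanMX locus and the GDP-creEBD78:LEU2 gene. It also carries his3-delta-1 at HIS3, leu2-delta-0 at LEU2, ura3-delta-0 at URA3 and met15-delta-0 at MET15, the older name of MET17. The S10D-labelled strain is MATa too, and shares the loxCEN4lox:KanMX locus and a Cre gene, spelled GDP-creEDB78:LEU2 in its label. Its histone label is hht2-hhf2::[HHT-S10D-HHFS]-URA3, a construct in place of the HHT2 and HHF2 gene pair. It further carries trp1::TetO:TRP1 and the repeat array lys4::LacO:hphNT1, with their fluorescent binding proteins his3::LacR-GFP:HIS3 and TetR-mRFP. Its remaining labels are bar1-delta-, Ade1 and leu2-x. All 4 groups therefore hold a centromere of chromosome IV flanked by lox sites and an estrogen-dependent Cre recombinase, and ethanol, the usual solvent of estradiol, leaves that recombinase without its ligand. The labels name neither separate cultures nor clones, so the p-values reflect the spread among these libraries, which may be technical. Because the strains differ at all these loci, a difference between them cannot be told apart from an effect of the histone residue.

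Histone H3 is 1 of the 4 core proteins around which DNA is wrapped. Its serine 10 lies in the amino-terminal tail and is phosphorylated during mitosis, in budding yeast by the Aurora B kinase Ipl1, and aspartate is commonly put in its place to imitate the negative charge of the phosphate. Budding yeast has a pair of divergently transcribed H3 and H4 gene pairs, HHT1 with HHF1 and HHT2 with HHF2, and both H3 genes encode the same protein. The title of the series concerns chromosome condensation in mitosis and transcription after anaphase.

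The serine in question is shown here in the reference genome, because the genotype labels alter this codon at HHT2 and leave HHT1 alone. Both lines give the first 45 coding bases in build R64, 5′ to 3′ on the coding strand, with the codon of serine 10 in capitals (codon 11 counting the start codon).
HHT1 (chrII:256331-256375, plus strand): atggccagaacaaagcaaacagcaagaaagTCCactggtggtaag
HHT2 (chrXIV:576006-576050, minus strand): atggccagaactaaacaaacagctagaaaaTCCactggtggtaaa
Reads that cover this codon are not separated in gene counts, so the residue itself was not measured.

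The depth was 9362173 to 10573069 counts in the S10D-labelled EtOH libraries and 10262162 to 11806239 in the reference EtOH libraries. Levels are CPM, counts scaled to library size with TMM factors, fold changes are log2 of S10D-labelled over reference with their standard error (SE) and n = 3 per strain, and a gene was called at an adjusted p under 0.05 (edgeR's quasi-likelihood test, Benjamini-Hochberg over all genes tested). The first principal component of the 12 libraries held 76.5% of the variance and separated the strains. Reference EtOH replicate 3 stood apart from replicates 1 and 2, with a chi-square per degree of freedom of 30.5 and 31.6, against 1.38 to 4.88 for the other 10 pairs of libraries within groups. Results are therefore also given without it where a gene list's count moved by over 1.5 times. Markers of the labelled mating type were present: the summed level of 7 a-specific genes was 3818 to 4543 CPM in the reference and 2361 to 2419.6 CPM in the S10D-labelled EtOH libraries. The summed level of 4 alpha-specific genes was 58.1 to 63.1 and 50.8 to 53.6 CPM, and no gene of either list was at 0 in all 3 libraries of a group.

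Most of the transcriptome differed between the strains, mainly by small amounts. With edgeR, 3481 of 5990 genes (58.1%) were called, 1602 (26.7%) higher and 1879 (31.4%) lower in the S10D-labelled strain. The libraries of both strains did not overlap for 3656 genes (61.0%). The median absolute log2 fold change of the called genes was 0.40, and 2142 of them lay under 0.5. A change of at least 2-fold was called for 546 genes (9.12%), 267 higher (4.46%) and 279 lower (4.66%). Of these, 60 were placed within 30 kb of a nuclear chromosome end and 362 beyond. The rest were features without a placed nuclear position, a class that held few of the genes tested. By 4 or more on the log2 scale, 31 called genes changed. Without reference EtOH replicate 3, 3935 of 6018 genes (65.4%) were called. With so large a background, the counts of gene groups below are to be read against 26.7% and 31.4% and against the median log2 fold change of all genes, -0.03.

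**Figure D1:**
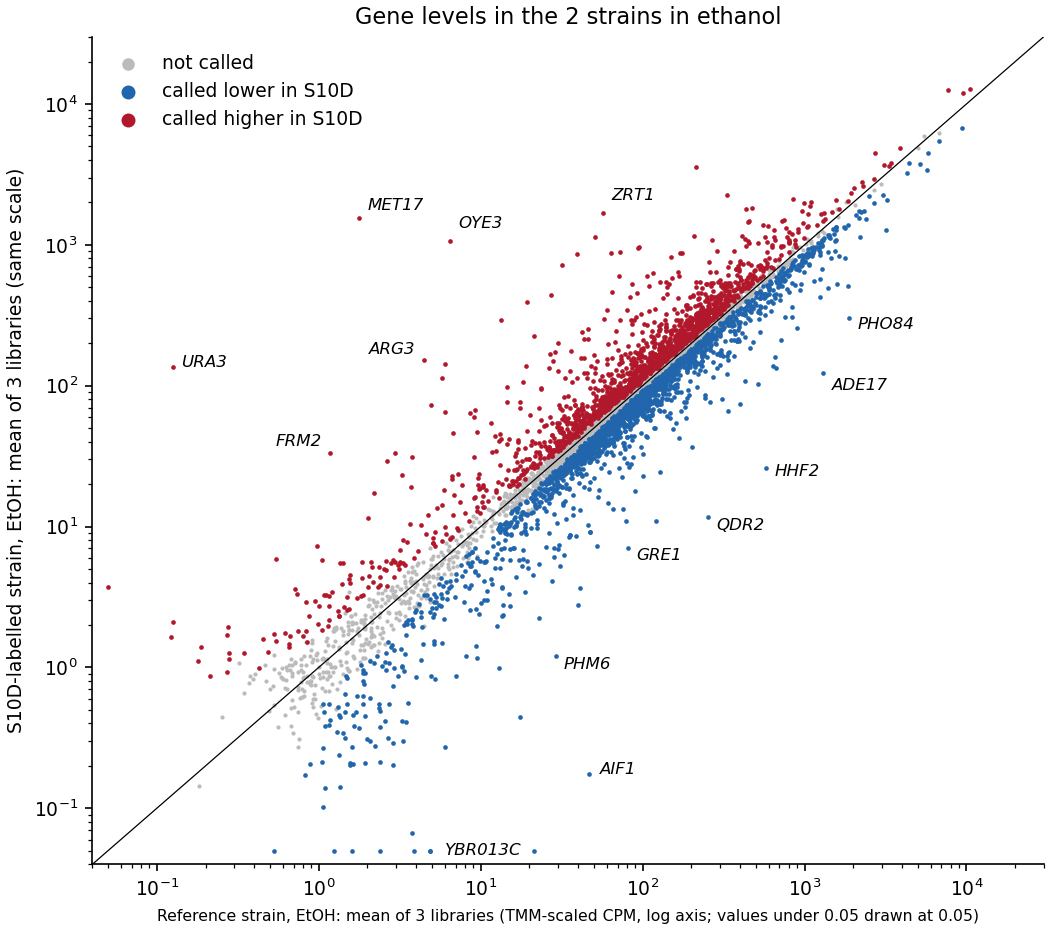
Mean level of each gene tested in the 3 reference (x axis) and the 3 S10D-labelled (y axis) EtOH libraries, in TMM-scaled CPM on log axes, with called genes in red (1602 higher) and blue (1879 lower). MET17, OYE3, ARG3 and URA3 lie far above the line of equal levels, and AIF1, PHM6, HHF2 and QDR2 far below it.

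The histone genes at the altered locus were read first, as a check of the labels. HHF2, the H4 gene of the replaced pair (YNL030W, XIV 576727 to 577038), had 552, 517 and 659 CPM in the reference libraries and 25.7, 23.9 and 28.7 in the S10D-labelled ones, a log2 fold change of -4.46 ± 0.10. HHT2, its H3 partner, had 870.3, 877 and 963 CPM against 272, 253 and 252 (-1.80 ± 0.05). The unaltered pair was higher in the S10D-labelled strain: HHF1 had 564, 563 and 659 against 1361, 1328 and 1385 CPM (1.19 ± 0.06), and HHT1 623, 567 and 758 against 1126, 1118 and 1147 CPM (0.80 ± 0.08). No library of either strain overlapped with the other strain in any of the 4 genes, but reads that fit both copies leave the split between copies uncertain. Of the 7 genes for H2A, H2B, H1 and variant histones, 5 were lower and 1 higher, with a median of -0.18 (3 were lower in a fit of the 6 EtOH libraries alone). The largest of these differences was HTA2, an H2A gene, at -0.53 ± 0.07, while HTA1, the other H2A gene, was at -0.11 ± 0.05 and was not called. HTZ1, the H2A variant of promoters, fell by 0.46, and HHO1, the linker histone, by 0.37.

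Genes listed around the kinase pathway of H3 serine 10 were called about as often as all genes (58.1%), in both directions. Of 14 listed genes, 3 were higher and 5 lower, against 26.7% and 31.4% of all genes, with a median of -0.00. The largest difference on the list was that of HRK1, at 0.99 ± 0.04, a kinase gene not shown here to act on this residue. SGO1 was next. IPL1, the gene of the H3 serine 10 kinase, had 23.3, 20.7 and 18.8 CPM in the reference and 15.2, 14.6 and 15.9 CPM in the S10D-labelled libraries (-0.46 ± 0.10). SLI15, its activator, was at -0.26 ± 0.07. SGO1, the shugoshin that keeps the kinase complex at centromeres, fell by 0.70 and BUB1, the kinase that recruits it, by 0.33. GLC7, the phosphatase that opposes Ipl1, was at 0.18 ± 0.05. Among 15 genes of condensin, topoisomerase II and cohesin, 8 were lower and 1 higher (median -0.16). The condensin subunit genes SMC4 and BRN1 were at -0.45 ± 0.09 and -0.40 ± 0.10, and TOP2, encoding topoisomerase II, at -0.30 ± 0.05.

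The sulfur pathway held the second largest increase of the comparison and moved as a group. Yeast takes up sulfate, reduces it to sulfide and joins it to a carbon chain made from homoserine to form methionine and cysteine, and the factors Met4 and Cbf1 switch these genes on. Of 33 genes, 29 were higher and 2 lower, and the median log2 fold change was 1.69. MET17, the enzyme that fixes sulfide (YLR303W, XII 732542 to 733876), is given as deleted in the reference label. It had 2.22, 1.74 and 1.38 CPM there against 1576, 1529 and 1528 in the S10D-labelled libraries (9.76 ± 0.08). The sulfate permease gene SUL2 (YLR092W, XII 323544 to 326225) had 25.4, 22.1 and 16.9 CPM in the reference libraries and 233, 233 and 213 CPM in the S10D-labelled ones, which did not overlap (3.40 ± 0.10, adjusted p 2.02e-12 by edgeR's quasi-likelihood test, higher in 3 of 3 libraries). STR3, which makes homocysteine from cystathionine, had 9.85, 7.62 and 8.38 against 61.6, 61.3 and 69.6 CPM (2.90 ± 0.10). SUL1, the other sulfate permease gene, was much lower in level, with 1.16, 0.289 and 1.47 against 7.46, 6.18 and 8.33 CPM (2.88 ± 0.31). MET16, for the reduction of activated sulfate, was at 2.63 ± 0.06. Both genes that fell encode DNA-binding factors of the pathway, and 1 was lower without reference EtOH replicate 1 or in a fit of the 6 EtOH libraries: CBF1 had 81.5, 85.1 and 94.2 against 30.1, 33.2 and 30.4 CPM (-1.48 ± 0.08) and MET31 was at -0.32 ± 0.10. MET4 itself was at 0.03 ± 0.07 and was not called.

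The binding letters of Cbf1, CACGTG, were looked for in the 600 bases before each start codon. They read the same on both strands and are shared with Pho4, the factor of the phosphate genes described further on. They were present before 21 of 33 sulfur genes (63.6%) and 17 of 20 phosphate genes (85.0%), against 433 of 5989 promoters (7.23%). Matches of 3 sulfur genes that rose and 3 phosphate genes that fell are shown because both lists carry the same letters and moved in opposite directions. They are the called members with the largest absolute change that hold a match at least 100 bases before the start codon, and the nearest such match is printed. Each line is R64 sequence from RefSeq, 5′ to 3′ on the strand of the gene, with the match in capitals.
MET17 (chrXII:732224-732265, plus strand): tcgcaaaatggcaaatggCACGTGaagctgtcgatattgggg
SUL2 (chrXII:323218-323259, plus strand): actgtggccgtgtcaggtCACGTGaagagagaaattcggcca
MET16 (chrXVI:877787-877828, minus strand): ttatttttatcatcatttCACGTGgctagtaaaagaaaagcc
PHM6 (chrIV:1022577-1022618, minus strand): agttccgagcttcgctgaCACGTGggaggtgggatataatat
SPL2 (chrVIII:375224-375265, minus strand): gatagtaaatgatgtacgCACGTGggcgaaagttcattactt
PHO84 (chrXIII:26191-26232, minus strand): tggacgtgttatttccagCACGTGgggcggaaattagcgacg
They lie 294, 302, 172, 273, 141 and 408 bases before the start codons, in this order. A match is a description of the letters and does not show that a factor binds there, and the strains themselves may differ from the reference genome. The difference of MET17 cannot be told apart from the deletion given in the reference label.

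Amino acid synthesis genes were higher in several pathways, most of all in arginine synthesis. Arginine is made from ornithine and carbamoyl phosphate, and many such genes answer to the activator Gcn4 when amino acids run short. Of 13 arginine genes, 10 were higher and 2 lower (median 1.0). ARG3, ornithine carbamoyltransferase (YJL088W, X 268799 to 269815), had 3.87, 4.82 and 4.67 CPM in the reference and 149.8, 151 and 153 CPM in the S10D-labelled libraries (5.08 ± 0.07). ARG1, which makes argininosuccinate (YOL058W, XV 219211 to 220473), had 18.6, 18.4 and 21.3 against 392, 401 and 393 CPM (4.34 ± 0.06, adjusted p 3.84e-16 by edgeR's quasi-likelihood test, higher in 3 of 3 libraries). CPA1, a subunit of carbamoyl phosphate synthetase, was at 2.22 ± 0.05, so all 3 of these genes lay beyond a 4-fold difference. CAN1, the arginine permease, fell by 0.60, and ARG81, a regulator that represses synthesis when arginine is present, by 0.12, though 1 arginine gene was lower with any other EtOH library than reference replicate 3 left out.

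The other amino acid pathways rose by less. In the branched-chain pathway 10 of 15 genes were higher and 1, LEU2, was lower (median 0.78). LEU2 is altered in both genotype labels, had 2813, 2878 and 4244 counts in the reference libraries and 2402, 2323 and 2414 in the S10D-labelled ones, and its call (-0.31 ± 0.10) was lost without S10D EtOH replicate 1 or 3, with -0.15 without reference EtOH replicate 3. The permease gene BAP2 had 250.3, 264 and 290.2 CPM in the reference libraries and 1078, 1077 and 1091 in the S10D-labelled ones (2.01 ± 0.05), and LEU1, isopropylmalate isomerase, was at 1.68 ± 0.05. Among aromatic amino acid genes 12 of 14 were higher and none was called lower (median 0.65), led by TRP1, which the S10D label alters (1.61 ± 0.06), and ARO1, the enzyme of 5 successive steps, at 1.26 ± 0.05. In lysine synthesis 8 of 11 were higher and none was called lower (median 0.63), with LYS1, the last enzyme, at 1.35 ± 0.05. LYS4, which carries the LacO array by its label, had 126, 129.9 and 160.3 against 319, 317 and 327 CPM (1.21 ± 0.07). Histidine synthesis did not follow: apart from HIS3, which is altered in both labels (3.09 ± 0.06), HIS1, HIS2 and HIS7 were called higher by at most 0.21, HIS1 and HIS2 not without either of reference EtOH replicates 1 and 2, and HIS4 was lower, at -0.26 ± 0.05, with 2 histidine genes lower without reference EtOH replicate 3. Of 18 further Gcn4 pathway genes 14 were higher and 3 lower (median 0.46), with HOM3, aspartate kinase, at 1.97 ± 0.05 and ASN1, asparagine synthetase, at 1.47 ± 0.05. GCN4 itself, looked at after these values were seen, had 1026, 1056 and 1018 CPM in the reference and 1341, 1343 and 1345 CPM in the S10D-labelled libraries (0.38 ± 0.04).

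The core of the Gcn4 site, TGACTC on either strand, stood before 12 of 13 arginine genes (92.3%) and 4 of 11 lysine genes (36.4%), against 916 of 5989 promoters (15.3%). It is shown for 2 arginine genes picked in the same way, with the match in capitals (GAGTCA is the same site read from the other strand).
ARG3 (chrX:268467-268508, plus strand): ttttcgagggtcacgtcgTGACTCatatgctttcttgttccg
ARG1 (chrXV:218919-218960, plus strand): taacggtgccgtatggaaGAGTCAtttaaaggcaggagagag
These matches lie 308 and 268 bases before the start codons.

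Genes of oxidative stress and drug resistance held most of the other large increases. Only part of this set is known to be switched on by the factor Yap1 and its relatives. It covers reductases, thioredoxins, glutathione synthesis and efflux pumps. Of 30 genes, 21 were higher and 3 lower, with a median of 1.10. The drug resistance genes PDR3, PDR10 and YOR1 were not called, and PDR15 was at 0.28 ± 0.08. OYE3, an old yellow enzyme that reduces reactive double bonds (YPL171C, XVI 226169 to 227371), had 5.41, 6.08 and 7.86 CPM in the reference libraries and 1069.9, 1069.9 and 1070.2 in the S10D-labelled ones. Its log2 fold change was 7.36 ± 0.09, the largest among genes that no label alters (adjusted p 1.28e-16, edgeR's quasi-likelihood test, higher in 3 of 3 libraries). ATR1, an efflux pump of the plasma membrane (YML116W, XIII 38196 to 39824), had 52.8, 54.6 and 45.2 against 1144, 1128 and 1118 CPM (4.48 ± 0.06). AAD6 and AAD4, of a family of putative aryl-alcohol dehydrogenases, were at 4.50 ± 0.05 and 4.44 ± 0.06, and reads shared within that family leave the values of single members uncertain. FRM2, of the nitroreductase family, had 0.966, 1.25 and 1.30 against 37.3, 31.4 and 32.0 CPM (4.82 ± 0.16). YML131W, related to medium-chain dehydrogenases, had 38.6, 36.5 and 42.3 against 869, 845 and 877 CPM (4.46 ± 0.05), and the short gene YER053C-A was at 4.55 ± 0.21.

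Further genes of this response were picked after their values were seen. GSH1, for the first step of glutathione synthesis, had 115, 115 and 119.5 against 620.0, 624 and 646 CPM (2.43 ± 0.04). YAP1, which is not on the list, was itself higher, with 198, 185 and 178 against 346, 353 and 349 CPM (0.90 ± 0.04). The genes that fell, of which 1 was called without S10D EtOH replicate 2 or in a fit of the 6 EtOH libraries, were TSA2, a peroxiredoxin, CCP1, the mitochondrial cytochrome c peroxidase, and PDR5, a drug efflux pump with 771, 823 and 657 against 644, 628 and 619 CPM (-0.25 ± 0.06). Outside the list, QDR2, a multidrug transporter (YIL121W, IX 132244 to 133872), went the other way, with 260.4, 264 and 231 CPM in the reference and 12.8, 12.0 and 10.2 CPM in the S10D-labelled libraries (-4.43 ± 0.09). Another pump gene, SNQ2, which lies near TRP1, was at 1.30 ± 0.06, and TPO1, a polyamine exporter, at 1.80 ± 0.09.

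The Yap1 site TTACTAA, on either strand, was present before 18 of 30 genes of the list (60.0%) and 817 of 5989 promoters (13.6%). It is shown for 3 genes of the list picked in the same way, a reductase, a pump and a dehydrogenase, with the match in capitals (TTAGTAA is the other strand's reading). This motif was chosen after the values had been seen.
OYE3 (chrXVI:227495-227537, minus strand): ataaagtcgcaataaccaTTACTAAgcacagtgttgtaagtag
ATR1 (chrXIII:37769-37811, plus strand): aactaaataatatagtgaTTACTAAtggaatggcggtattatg
AAD4 (chrIV:18898-18940, minus strand): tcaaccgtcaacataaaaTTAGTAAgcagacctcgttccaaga
The matches lie 141, 402 and 349 bases before the start codons.

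**Figure D2:**
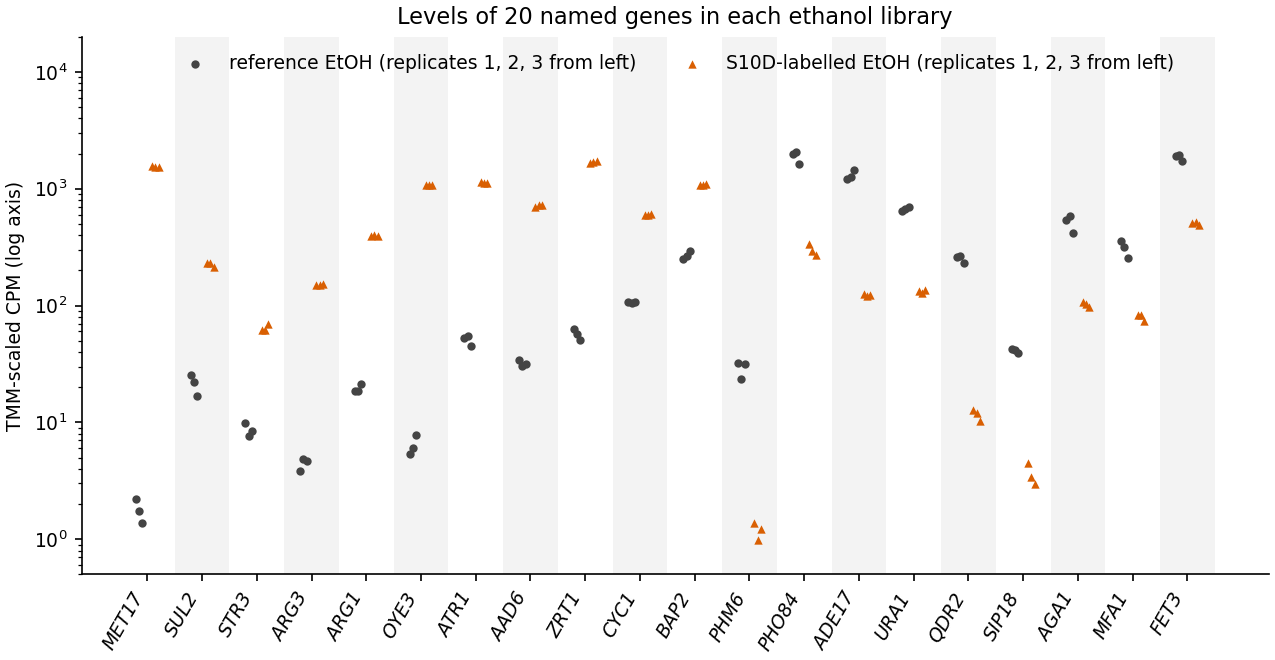
Level of 20 named genes in each of the 6 EtOH libraries (TMM-scaled CPM, log axis), reference as circles and S10D-labelled as triangles. The triplets of both strains are apart for every gene shown, from MET17 and OYE3, higher in the S10D-labelled strain, to PHM6 and QDR2, lower there.

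Purine synthesis genes were mostly lower, and pyrimidine genes were mixed. Of 19 purine genes 12 were lower and 3 higher (median -0.70). ADE17, for the last steps of IMP synthesis (YMR120C, XIII 507502 to 509280), had 1208, 1255 and 1457 CPM in the reference and 125, 120.3 and 124 CPM in the S10D-labelled libraries (-3.41 ± 0.07). ADE1, which the S10D label names, was at -2.22 ± 0.06, and ADE2, an enzyme of the same path, at -1.99 ± 0.07. ADE16, the near relative of ADE17, was at -0.03 ± 0.06 and was not called. The genes that rose were IMD2, for the step from IMP toward GMP (26.1, 26.0 and 27.3 against 132, 130.1 and 139.5 CPM, 2.34 ± 0.06), its relative IMD3, and ADE3. In pyrimidine synthesis 7 of 15 were lower and 4 higher (median -0.14). URA3, deleted in the reference label and present as the marker of the histone construct, had 1, 2 and 1 counts in the reference libraries and 1401, 1212 and 1305 in the S10D-labelled ones. URA1, the dihydroorotate dehydrogenase, had 647, 671 and 695 against 134, 129 and 136 CPM (-2.33 ± 0.04), and URA4, for the step before it, was at -1.19 ± 0.05.

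Phosphate and metal uptake genes differed strongly, in different directions. Of 20 genes of the phosphate pathway, which the factor Pho4 switches on when phosphate is scarce, 16 were lower and 1 higher (median -0.66). PHO84, the high-affinity phosphate transporter (YML123C, XIII 24037 to 25800), had 1977, 2053 and 1630.2 CPM in the reference and 338, 292 and 271 CPM in the S10D-labelled libraries (-2.65 ± 0.09). SPL2, a regulator of low-affinity uptake, had 42.4, 37.1 and 39.6 against 3.04, 2.98 and 2.26 CPM (-3.84 ± 0.16), and PHM6, a phosphate-regulated gene, 32.3, 23.4 and 31.4 against 1.37, 0.994 and 1.23 CPM (-4.58 ± 0.20). The acid phosphatase gene PHO11 was at -2.49 ± 0.26, with reads that cannot be told apart from its near-identical relative PHO12. PHO4, the gene that rose, did so by 0.27, and 2 genes were higher without reference EtOH replicate 3. No phosphate gene was called at least 2-fold higher, and 8 were called at least 2-fold lower, all with CACGTG in the window searched.

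Zinc uptake was higher. ZRT1, the high-affinity zinc transporter (YGL255W, VII 20978 to 22108), had 62.8, 57.1 and 50.6 CPM in the reference libraries and 1651, 1696 and 1718 in the S10D-labelled ones (4.89 ± 0.07). ZRT2, its low-affinity counterpart, was at 1.57 ± 0.04, ZPS1, another zinc-regulated gene, at 2.84 ± 0.07, and ZAP1, the zinc-responsive factor that controls these genes, at 1.44 ± 0.08. Over 15 zinc and copper genes 7 were higher and 4 lower (median 0.23). Of 29 iron genes 14 were lower and 8 higher (median -0.17). FET3, the ferroxidase of iron uptake, had 1911, 1949.9 and 1718 against 509, 519.7 and 492 CPM (-1.88 ± 0.05), and TIS11, which degrades mRNAs in iron shortage, fell by 2.36. HMX1, heme oxygenase, had 20.8, 16.1 and 20.5 against 138, 137 and 137 CPM and was higher (2.84 ± 0.08).

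**Figure D3:**
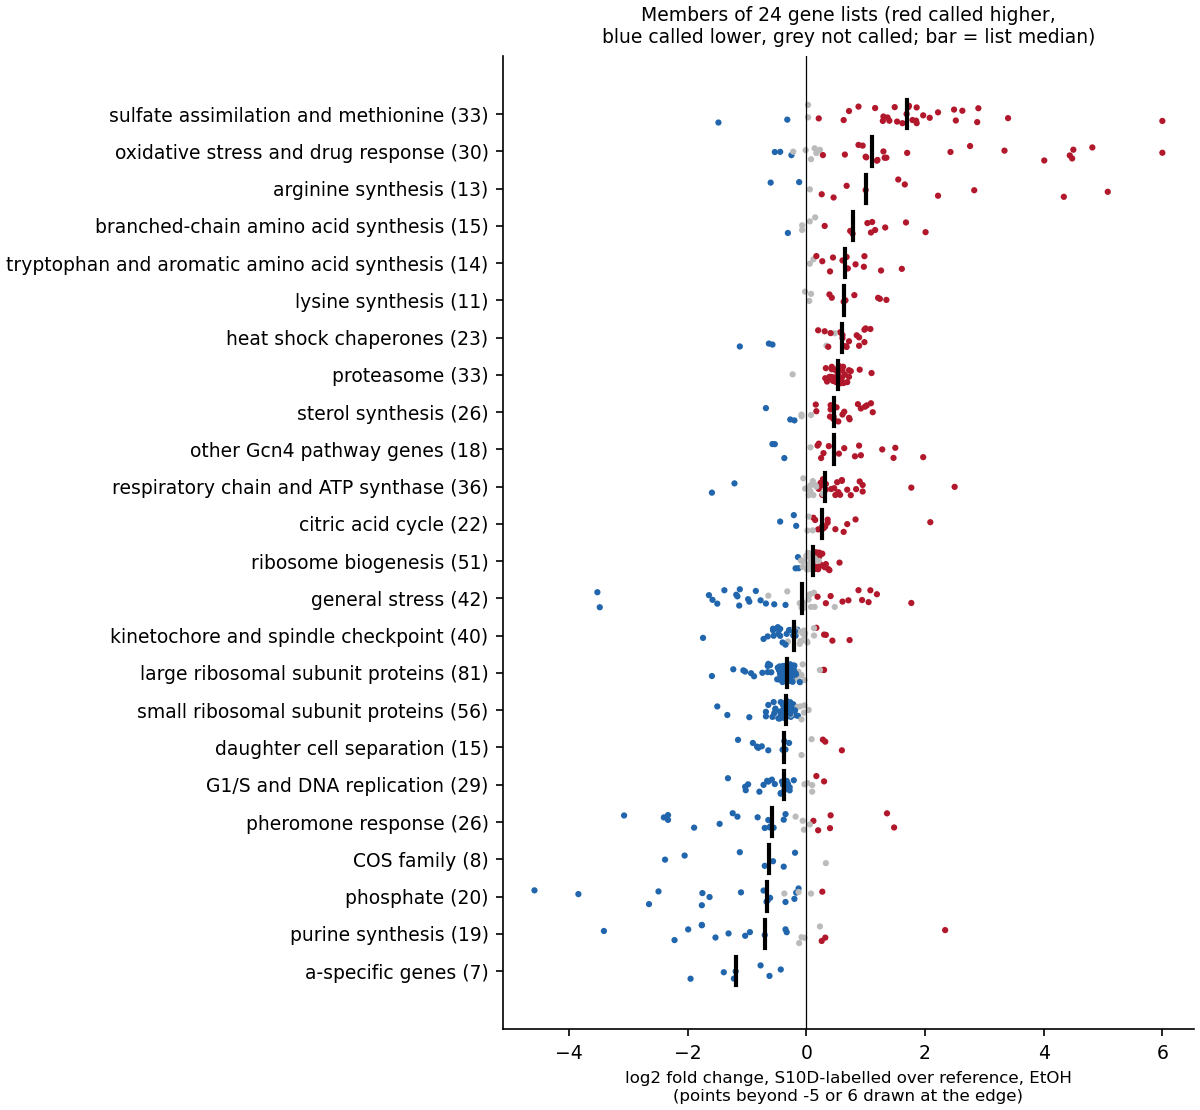
Log2 fold change of each tested member of 24 gene lists (x axis, numbers of members in brackets), with called members in red or blue, uncalled in grey and the list median as a bar. Medians run from -1.19 for the a-specific genes to 1.69 for the sulfur genes, and the proteasome and ribosomal protein genes form narrow clusters.

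Respiratory genes were higher by modest amounts. Of 36 genes of the respiratory chain and ATP synthase 23 were higher and 2 lower (median 0.31), and of 22 citric acid cycle genes 15 were higher and 3 lower (median 0.27), or 1 lower without S10D EtOH replicate 2 or in a fit of the 6 EtOH libraries. CYC1, the main cytochrome c isoform (YJR048W, X 526335 to 526664), had 107, 105 and 107 CPM in the reference and 601, 595 and 606 CPM in the S10D-labelled libraries (2.50 ± 0.04). CYC7, the isoform of low oxygen, was at 1.77 ± 0.11, and the genes that fell were COX5B, the low-oxygen form of a cytochrome oxidase subunit (-1.59 ± 0.06), and NDE2, an external NADH dehydrogenase (-1.21 ± 0.20). CIT2, the peroxisomal citrate synthase, had 64.9, 63.6 and 113 against 323, 349 and 358 CPM (2.09 ± 0.17). Among 23 oxygen and heme genes 10 were higher and 10 lower. YHB1, a flavohemoglobin that detoxifies nitric oxide, had 322, 320.3 and 355 against 2302, 2208 and 2258 CPM (2.76 ± 0.05), and CYB2, lactate dehydrogenase, was at 2.30 ± 0.07. HAP1, a heme-dependent activator known to act on CYC1 and CYB2, was looked at after these values were seen and had 337, 361 and 306 against 154, 149 and 158 CPM (-1.12 ± 0.06). In the reference genome this gene carries a Ty element, and its sequence in these strains was not analysed here.

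Hexose transport genes moved in both directions and were called about as often as all genes (58.1%). HXT1, the low-affinity glucose transporter, had 36.8, 33.3 and 60.2 CPM in the reference and 217, 215 and 213 CPM in the S10D-labelled libraries (2.30 ± 0.16). HXT3 and HXT2 were higher too, at 1.96 ± 0.07 and 1.0 ± 0.07, and HXT4 was lower, at -0.44 ± 0.05. HXT5, the transporter of slow growth, was at -2.05 ± 0.11. HXT6, a high-affinity transporter, was at -2.29 ± 0.18, but its near-identical relative HXT7 was at -0.16 ± 0.09 and was not called. Reads shared by HXT6 and HXT7 leave their values uncertain. Of 18 hexose transport genes tested 5 were higher and 6 lower (median 0.05), and 8 were called higher without reference EtOH replicate 2. Of 25 glycolysis and fermentation genes 7 were higher and 11 lower (median -0.09). Among the hexokinases GLK1 was at 0.88 ± 0.06 and HXK1 at -1.13 ± 0.06, and PDC1, pyruvate decarboxylase, was at 0.71 ± 0.08. MDH2, the cytosolic malate dehydrogenase of gluconeogenesis, had 212, 216 and 179 against 36.2, 37.5 and 36.8 CPM (-2.46 ± 0.09). Over 28 genes of gluconeogenesis and other carbon sources 6 were higher and 9 lower (median -0.04), with 3 higher among genes averaging 10 CPM or more. Sterol synthesis was higher in 20 of 26 genes and lower in 3 (median 0.47), with HMG-CoA synthase ERG13 at 1.12 ± 0.04 and the reductase HMG1 at 1.09 ± 0.05.

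Protein folding and breakdown genes were higher almost throughout. Of 33 proteasome genes 32 were higher and none was called lower (median 0.53). RPN4, the factor that switches them on, had 109.8, 120.1 and 114 CPM in the reference and 245, 248 and 245 CPM in the S10D-labelled libraries (1.10 ± 0.04), and RPN5, a subunit of the lid, 238, 242 and 267 against 405, 403 and 423 CPM (0.72 ± 0.05). The member not called was RPT2, at -0.23 ± 0.15, and without reference EtOH replicate 3 it was called lower (-0.44). The core letters of the Rpn4 site, GGCAAA, on either strand, stood before 30 of 33 of them (90.9%), against 2005 of 5989 promoters (33.5%), a motif chosen after the values had been seen. Of 23 heat shock chaperone genes 18 were higher and 3 lower (median 0.61). STI1, a cochaperone of Hsp90, was at 1.08 ± 0.06 and HSC82, an Hsp90 gene, at 0.98 ± 0.05, while HSP26, the small heat shock protein, had 1251, 1312 and 1162 against 562, 557 and 600.1 CPM (-1.12 ± 0.05).

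The general stress genes, targets of the factors Msn2 and Msn4, were divided. Of 42, 11 were higher and 17 lower (median -0.07), and without reference EtOH replicate 3 the counts were 19 and 17 (median 0.05). GRE1 and SIP18, hydrophilins of water stress, were the lowest, with 90.7, 88.7 and 63.4 against 5.89, 7.73 and 7.61 CPM (-3.52 ± 0.16) and 42.3, 41.3 and 39.6 against 4.51, 3.42 and 2.98 CPM (-3.48 ± 0.11). ALD3, a stress-induced aldehyde dehydrogenase, was at -1.64 ± 0.08. The stress element AGGGG was present before 41 of the 42 genes (97.6%) and 2376 of 5989 promoters (39.7%), so it did not separate the members that rose from those that fell.

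Ribosomal protein genes were slightly lower, nearly all together. Of 81 genes of the large subunit 72 were lower and 2, RPL7B and RPL10, higher (median -0.32). Of 56 genes of the small subunit 49 were lower and none was called higher (median -0.35). RPS22B was among the 4 largest differences of the small subunit and had 777, 625 and 720.1 CPM in the reference and 419, 444 and 458 CPM in the S10D-labelled libraries (-0.68 ± 0.09). The largest differences were those of RPL42B, at -1.59 ± 0.17, and RPS28B, at -1.50 ± 0.19, or -1.36 and -1.17 without reference EtOH replicate 3, followed by RPS12 and RPL41B (-1.23 ± 0.22, and -0.88 without it), and reads shared with near-identical copies leave RPL42B, RPS28B and RPL41B uncertain. Some members leaned on that library. RPS12 had 2796, 2435 and 4389 against 1290.1, 1269.5 and 1264 CPM, at -1.33 ± 0.18 with that library and -1.04 without it. RPL38 had 704, 651 and 2099.5 against 557, 543 and 555 CPM (-1.06 ± 0.38) and was at -0.30 without it, still called, but its call was lost with any of the 3 S10D EtOH libraries left out, with the replicate block (-0.94), with no filter and in a fit of the 6 EtOH libraries (-1.04). The list medians without it were -0.31 and -0.31. Short genes as a class were also lower: the median of 685 protein-coding genes under 500 bp was -0.14 and that of 1295 genes of at least 2000 bp was 0.04, or -0.09 and 0.00 without that library. The part of gene length in the ribosomal result was not tested. Of 51 ribosome biogenesis genes 20 were higher and 3 lower (median 0.11), with the processing factor RRP12 at 0.56 ± 0.05, and 6 were lower without reference EtOH replicate 3 and none was called lower in a fit of the 6 EtOH libraries or without S10D EtOH replicate 1. Of 66 mitochondrial ribosomal protein genes 26 were lower and 3 higher (median -0.12). Without reference EtOH replicate 3 the counts were 23 and 7 (median -0.05), and 17 were lower in a fit of the 6 EtOH libraries alone.

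Small non-coding RNA features, which mostly lack the poly(A) tail by which the libraries were captured, were lower too. Of 77 such features 60 were lower and 6 higher (median -1.45), and without reference EtOH replicate 3 the counts were 57 and 8 (median -1.41). SCR1, the RNA of the signal recognition particle, had 84.6, 75.2 and 204 CPM in the reference libraries, the highest of them in replicate 3, and 8.14, 12.3 and 12.7 in the S10D-labelled ones (-3.47 ± 0.50, and -2.87 without that replicate). RPR1, the RNA of RNase P, had 44.8, 43.1 and 53.3 against 8.44, 10.2 and 8.74 CPM (-2.37 ± 0.12). Whether capture of such RNAs had a part in other results was not tested.

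Mating genes were lower in the S10D-labelled strain, although both strains are labelled MATa. All 7 a-specific genes were lower (median -1.19). MFA1, a gene of the a-factor pheromone, had 356, 319 and 254 CPM in the reference and 83.5, 83.0 and 73.5 CPM in the S10D-labelled libraries (-1.95 ± 0.11), and STE2, the receptor of alpha factor, was at -0.77 ± 0.04. BAR1, the protease that degrades alpha factor and 1 of these 7 genes, is given as deleted in the S10D label. The S10D-labelled libraries nevertheless had 3668, 3294 and 3528 counts of it, against 9265, 9176 and 8632 in the reference (-1.22 ± 0.06). These counts do not bear out that label, which was kept as given. Of 26 pheromone response genes 16 were lower and 6 higher (median -0.57). AGA1, the anchor of the a-agglutinin, had 539.5, 587 and 419 against 106, 103 and 97.7 CPM (-2.33 ± 0.10), and FUS1, for cell fusion, 91.2, 96.2 and 81.4 against 17.5, 17.1 and 18.8 CPM (-2.33 ± 0.08). PRM1, also for fusion, was at -2.40 ± 0.13, while PRM5 and PRM10 were higher by 1.48 and 1.36. The pheromone element TGAAACA, on either strand, stood before 19 of 26 of these genes (73.1%), against 873 of 5989 promoters (14.6%). In bulk RNA, fewer cells in a state and less RNA per cell cannot be told apart.

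Genes of early cell cycle steps were mostly lower. Of 29 genes of the G1/S transition and DNA replication 23 were lower and 2 higher (median -0.37). PCL2, a G1 cyclin, had 173, 157 and 111 CPM in the reference and 58.7, 59.8 and 57.7 CPM in the S10D-labelled libraries (-1.32 ± 0.12), and HCM1, a forkhead factor of S phase, 205, 211 and 155 against 93.8, 94.8 and 92.9 CPM (-1.02 ± 0.09). Of 20 genes of the mitotic CLB2 cluster 7 were lower and 2 higher (median -0.06), close to the share of all genes that were lower, with the B-type cyclin genes CLB1 and CLB2 at -0.80 ± 0.04 and -0.60 ± 0.07. Genes of daughter cell separation were lower in 10 of 15 and higher in 3 (median -0.37). DSE1, made in daughter cells, was at -1.15 ± 0.05, and DSE4, the glucanase that separates them, was among the genes that rose (0.60 ± 0.08). Of 40 kinetochore and spindle checkpoint genes 21 were lower and 5 higher (median -0.20). DAD1, a subunit of the ring that couples kinetochores to microtubules, had 61.1, 59.3 and 104 against 24.0, 21.8 and 21.6 CPM (-1.74 ± 0.20, and -1.42 without reference EtOH replicate 3), and the checkpoint gene MAD2 was at 0.73 ± 0.06.

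Some sequences had almost no reads in a strain without a label that names them. Apart from URA3, the genes with at most 5 counts in every EtOH library of a strain and at least 50 in every EtOH library of the other were YBR013C, AIF1 and snR3, all near 0 in the S10D-labelled strain. YBR013C (YBR013C, II 265492 to 265881) had 178, 189 and 336 counts in the reference libraries and 0, 1 and 0 in the S10D-labelled ones. The small nucleolar RNA snR3 had 57, 61 and 76 against 4, 1 and 3 counts in EtOH, and 55, 45 and 76 against 21, 2 and 6 in E2, where it was less separate. It belongs to the small non-coding features given above, which were lower as a class (60 of 77, median -1.45). AIF1, a mitochondrial cell death factor (YNR074C, XIV 777602 to 778738), had 448, 494 and 574 against 1, 2 and 2 counts. AIF1 lies in a run of such genes at the right end of chromosome XIV. PDR18, an ABC transporter (765375 to 769376), had 40, 39 and 80 counts in the reference and 0 in all 3 S10D-labelled libraries, at least 15.6-fold lower when set against a floor of 3 counts per library. MAN2, mannitol dehydrogenase, had 18, 17 and 17 counts against 0, at least 5.2-fold lower by the same floor, and YNR071C, 52, 35 and 38 against 1, 0 and 0. HXT17 between them had 8, 3 and 6 counts against 0. Beyond AIF1, COS10 kept 87, 71 and 93 counts against 350, 393 and 412 in the reference (-2.05 ± 0.10), but genes of the COS family share sequence. Inward of PDR18 the run ended: BSC5 was at -0.36 ± 0.07, YNR068C at 0.46 ± 0.10 and DSE4, given above, was higher. The E2 libraries of the same strains showed 0 to 1 counts of AIF1 in the S10D-labelled strain against 476 to 560 in the reference. A missing stretch and a silent one cannot be told apart from RNA counts.

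**Figure D4:**
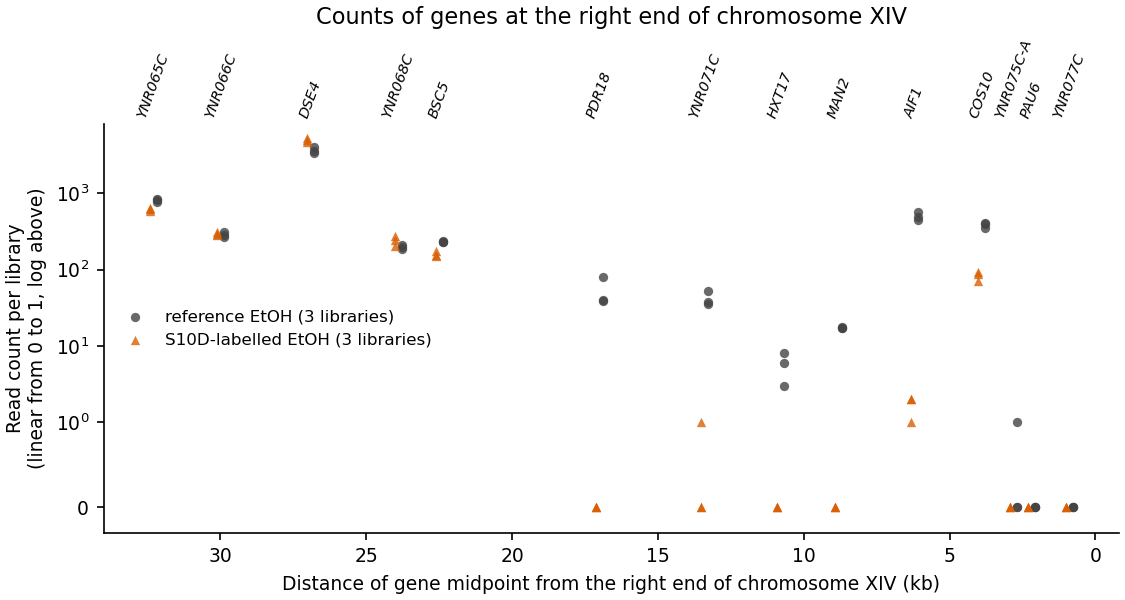
Read counts per library of genes by distance from the right end of chromosome XIV (x axis, kb; y axis linear from 0 to 1 and log above), reference EtOH libraries as circles and S10D-labelled as triangles. From PDR18 to AIF1 the S10D-labelled libraries have 0 to 2 counts, while DSE4, further inward, is higher in them.

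Large changes made up a larger share of the genes near chromosome ends than of those beyond. Within 30 kb of an end, 64% of 278 genes were called, against 58.1% beyond, a difference that was not tested, and 21.6% were called with at least a 2-fold change, against 6.72%. The median log2 fold change was -0.03 near ends and -0.02 beyond. Over 8 tested COS genes, a family that lies near ends, 7 were lower and none was called higher (median -0.63), with COS8 at -2.38 ± 0.06. The median within 30 kb of the right end of chromosome XIV was -3.78 over 10 genes. Apart from ends with under 5 tested genes, the next were the left end of XII at 1.49 over 7 genes and the left end of VIII at -0.67 over 11. Medians of 120 windows of 100 kb, too wide to show the stretch on XIV, ran from -0.20 to 0.13, and those of the chromosomes from -0.08 to 0.00. The 3 nearest tested features on each side of the 9 labelled loci were called in 28 of 54 cases (51.9%), 17 higher and 11 lower, with a median of 0.04. Among them ECM38, which breaks down glutathione and lies near MET17, was at 1.66 ± 0.06, and TIM9, next to URA3, at 1.12 ± 0.09. The Ty gene feature YCL019W beside LEU2 had 0, 0 and 1 counts in the reference and 50, 28 and 31 in the S10D-labelled libraries, and YBL005W-B, another Ty feature, was at -3.34 ± 0.15. Reads of such repeats cannot be assigned to a single copy.

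The same strains were compared again in the E2 libraries, which are other samples but shared the filter, scaling and spread of the model of 12 libraries. There, 3254 of 5990 genes (54.3%) were called in edgeR's test. Of the 3481 genes called in EtOH, 2288 were called in the same direction (65.7% of the EtOH calls and 70.3% of the E2 calls), 141 in the opposite direction and 1052 not at all. Of the 546 genes with at least a 2-fold change in EtOH, 475 were called in the same direction and 3 in the opposite direction. Across the 5990 genes, which are not independent, Pearson's r of both log2 fold changes was 0.88, as a description. The median ratio of the absolute log2 fold changes, E2 over EtOH, was 0.75 over these 546 genes, which were chosen for their size in EtOH. OYE3 was at 6.35 ± 0.08 there, ARG3 at 4.36 ± 0.07, PHM6 at -4.46 ± 0.19 and ZRT1 at 4.55 ± 0.07. Of the 33 sulfur genes, 27 were called higher in E2 and 3 lower, with a median of 0.95. Their strain difference was called lower in E2 than in EtOH for 20 and higher for 1, against 10.6% and 9.82% of all genes. Of the 30 oxidative stress and drug resistance genes, 19 were called higher in E2 and 7 lower (median 0.5). Their strain difference was called lower in E2 than in EtOH for 20, and for none was it called higher.

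Several groups did not carry over, and the ribosomal protein and stress genes held the most such members. The difference between the strain effects in E2 and EtOH was called for 1224 genes (20.4%), 588 higher (9.82%) and 636 lower (10.6%) in E2, or for 1994 without reference EtOH replicate 3. It was called higher in E2 for 65 of 81 large subunit and 47 of 56 small subunit genes, and none of either was called lower. Their medians in E2 were 0.16 and 0.10, against -0.32 and -0.35 in EtOH. Of the 42 general stress genes, 32 were called lower in E2 than in EtOH by this test and 1 higher, and their E2 median was -0.81. HSP104, the disaggregase, was at 0.61 ± 0.05 in EtOH and -0.39 ± 0.05 in E2, and HSP26, lower in both, at -1.12 ± 0.05 and -2.53 ± 0.05. Of the 66 mitochondrial ribosomal protein genes, 2 were lower and 12 higher in E2 (median 0.08). The 7 genes for H2A, H2B, H1 and variant histones had 3 higher and none called lower there (median 0.12), and those of daughter cell separation 6 in each direction (median 0.09). Of 30 genes of nitrogen and amino acid breakdown, 10 higher and 7 lower in EtOH, 6 were higher and 15 lower in E2 (median -0.19). The trend with gene length turned as well. Protein-coding genes under 500 bp had a median of 0.04 in E2 against -0.14 in EtOH. Those of at least 2000 bp had -0.06 in E2 against 0.04 in EtOH. The part of gene length in these group results was not tested.

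**Figure D5:**
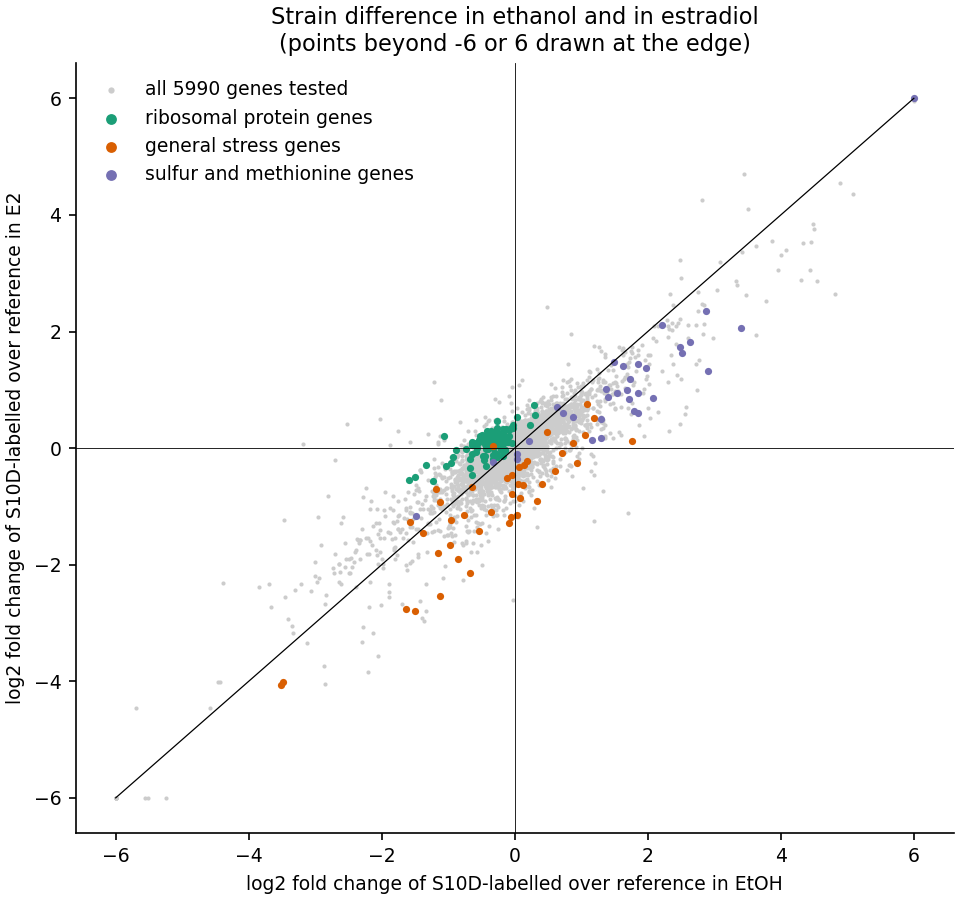
Log2 fold change of S10D-labelled over reference in EtOH (x axis) and in E2 (y axis) for the 5990 genes tested, with ribosomal protein, general stress and sulfur genes coloured. Most genes lie along the diagonal, ribosomal protein genes above it (E2 medians 0.16 and 0.10) and general stress genes below it (E2 median -0.81).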

How the data were processed

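The deposited values are counts, whole numbers of reads for each of 7127 annotated features, in a table made by the authors. Per the submitters' processing notes, bcl2fastq 2.20.0.422, cutadapt 1.10, STAR 2.5.3a and HTSeq 0.6.1p1 were used with builds R64 and sacCer3. Which tool did what, how reads were counted and with which strand setting is not given in the sources used here, so overlapping and antisense genes cannot be told apart with certainty. Per the labels' protocols, poly(A) RNA was captured with oligo(dT), fragmented and made into strand-specific libraries with 12 PCR cycles. No molecular identifiers are mentioned, so counting limits such as the floor of 3 counts cover counting error only.

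Of the features, 6047 were placed on R64 by locus tag and 41 by symbol, and the 1039 unmatched held at most 0.481% of a library. Genes kept by filterByExpr (minimum count 10, minimum total 15) were tested with edgeR 4.0.16 in R 4.3.3: TMM, robust quasi-likelihood, 2-sided, in a model of 4 group means over 12 libraries with 8 residual degrees of freedom. The common biological coefficient of variation was 6.31%. The difference of strain effects between E2 and EtOH was tested as an interaction in this model. The fit was tested on simulated data with known changes. Alternatives were DESeq2 1.42.0, DESeq2 size factors, other filters, a replicate block, fits of the compared libraries alone and each library left out. The fit of 5 EtOH libraries was added after the data had been seen.

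Genes named are the 12 largest and 12 smallest called changes among genes averaging 10 CPM or more whose libraries did not overlap, genes of the genotype labels, up to 4 called members of each of 51 pathway lists, genes near 0 in a strain and called neighbours of altered loci. Other genes named within a list are small remainders, the list's regulators or examples chosen after their values were seen. Not every gene the rule named is reported. The members, lists and motifs were chosen with earlier results of these data known.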

Additional observations from a re-analysis of the deposited data

Results flagged for a closer look

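The strain difference was called unequal in E2 and EtOH for 1224 genes. Among the genes with the largest strain differences, the log2 difference in E2 minus that in EtOH was -1.01 for OYE3, -0.72 for ARG3, -0.83 for ARG1, -0.35 for ZRT1, -2.18 for FRM2 and -1.67 for YER053C-A. It was -0.75 for AAD6, -1.38 for AAD4, -0.63 for ATR1 and -0.94 for YML131W. All 10 were higher in the S10D-labelled strain in EtOH and less so in E2. Among genes lower in that strain, the difference was 0.45 for HHF2, 0.42 for QDR2, 1.45 for SPL2, 0.47 for ADE17 and 2.24 for SCR1, so these were less reduced in E2. SIP18, at -0.53, was reduced further there. These genes were ranked by their size in EtOH, which favours a smaller difference in E2. Not every gene so ranked is listed, with URA3, MET17 and PHM6 among those left out.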

How the results depend on the processing

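The number of genes called in EtOH was 3481, and 3361 with DESeq2, 3485 with DESeq2 size factors, 3490 with no filter, 3191 at a mean of at least 10 CPM, 2922 in a fit of the 6 EtOH libraries and 3915 in a fit of 5 without reference EtOH replicate 3. It was 3127 to 3935 with each library left out in turn, and 546 when a change of 1 or more on the log2 scale was also asked for. In the separate fit at a mean of at least 10 CPM, 356 genes were called with such a change. With the replicate block, 3504 genes were called. Deviations of same-numbered EtOH libraries of both strains from their group means correlated at 0.005, 0.016 and 0.128. Those of differently numbered ones correlated at -0.109 to 0.092. With 3 libraries per group, these values cannot settle whether equal replicate numbers pair the libraries. The genes unequal in E2 and EtOH numbered 906 to 1994 with each library left out, highest without reference EtOH replicate 3; the cause was not tested. For the 235 named genes, 2981 of 3033 gene and alternative pairs kept direction and call, 52 lost the call and none reversed. Of 1326 list counts, 1245 stayed within 1.5 times. DESeq2 size factors moved the median of all genes by 0.016. Genes of a few counts, such as HXT17, MAN2 and PRM6, are those where depth limits precision most.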

Other observations

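Values of further gene groups in EtOH follow, several of which were called no more often than all genes (58.1%), as were those of RNA polymerase, silencing, meiosis, inositol, nitrogen and PAU genes. Of 19 tested genes of sodium and other transport 12 were higher and 5 lower (median 0.34). The plasma membrane proton pump gene PMA2, the minor isoform, had 106, 111 and 84.1 CPM in the reference and 22.5, 22.2 and 24.0 CPM in the S10D-labelled libraries (-2.13 ± 0.10), and ARR3, the arsenite exporter, was at 1.77 ± 0.10. The aquaporin gene AQY2 had 10.8, 8.58 and 9.24 against 48.1, 45.3 and 46.4 CPM (2.29 ± 0.09). Of 25 cell wall integrity genes 12 were higher and 11 lower (median 0.17), with SLT2, the kinase of the pathway, at 0.88 ± 0.05 and the mannoprotein gene TIR1 at -1.63 ± 0.09. Of 16 DNA damage genes 7 were higher and 3 lower (median 0.04). RAD16, of nucleotide excision repair, was at 1.06 ± 0.07.

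Among 30 genes of nitrogen and amino acid breakdown 10 were higher and 7 lower (median 0.11). The proline permease gene PUT4 was at 2.0 ± 0.12 and CAR2, which breaks down ornithine, had 85.7, 84.8 and 84.8 against 27.3, 28.2 and 27.5 CPM (-1.62 ± 0.06). Of 15 inositol and phospholipid genes 3 were higher and 5 lower (median -0.03), with the inositol transporter gene ITR1 at -0.81 ± 0.07. Of 30 vitamin pathway genes 7 were higher and 11 lower (median -0.15), with BIO4 at -1.06 ± 0.18, and 4 were called higher without S10D EtOH replicate 2 or in a fit of the 6 EtOH libraries alone. Among 19 silencing factors 3 were higher and 6 lower (median -0.09): SIR4 was at 0.42 ± 0.06, SIR2 at -0.27 ± 0.07 and RAP1 at -0.42 ± 0.05. Of 20 histone gene regulators and chaperones 4 were higher and 8 lower (median -0.12), or 13 lower without reference EtOH replicate 3 and 5 lower in a fit of the 6 EtOH libraries alone, and MSI1, a subunit of chromatin assembly factor 1, was at -0.88 ± 0.10. Of 30 RNA polymerase subunit genes 5 were higher and 8 lower (median -0.08), or 5 lower either without S10D EtOH replicate 3 or in that 6-library fit. Of 17 tested meiosis markers 6 were higher and 2 lower (median 0.35), with 1 higher among genes averaging 10 CPM or more and 1 lower with any one of reference EtOH replicates 2 and 3 and S10D EtOH replicates 2 and 3 left out, and their summed level was 126.5 to 133.3 CPM in the reference and 137.3 to 150.1 CPM in the S10D-labelled EtOH libraries. Of 8 tested flocculation and adhesion genes 1 was higher and 4 lower (median -0.20), and of 10 tested PAU genes 3 were higher and 1 lower (median 0.40), most of them at few counts.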
